A study of Mus musculus with 20 samples.

Results

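The measurements below concern 9 interferon-stimulated genes in the livers of mice fed a high-fat diet (HFD) and exposed to polychlorinated biphenyls (PCBs). The 9 genes are Ifit1, Ifit3, Isg15, Irf7, Oasl1, Usp18, Rsad2, Irgm1 and Gbp2. They were chosen by name, as the rows of the raw count table whose Ensembl identifiers carry these symbols in the mouse gene annotation, a rule that uses no measured value, although the genes were picked with earlier results of these data known. All 9 were among the 21780 genes of the table, and all 9 were among the 15522 genes tested, which were those whose counts summed to 10 or more over the libraries.

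Poly(A) RNA from liver was sequenced from 20 male C57Bl/6J mice in 4 groups of 5. All 20 mice ate a diet with 42% of its energy from fat, which began at 8 weeks of age and lasted 12 weeks, and at 10 weeks of age each received a single oral gavage. The HFD control mice received the corn oil vehicle. The other mice received Aroclor 1260 at 20 mg/kg, PCB 126 at 20 µg/kg, or both at these doses, and the last group is called the combined exposure below. Aroclor 1260 is a commercial mixture of mostly non-dioxin-like PCBs, and PCB 126 is a dioxin-like congener that activates the aryl hydrocarbon receptor. Livers were taken after a 6 h fast, so each value describes 1 late time point. No group on a control diet was analysed here, so every comparison is within HFD-fed mice. The doses of the 2 PCB preparations differ, so their values are given side by side without a comparison of one with the other.

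Interferons are cytokines that a cell releases on sensing viral nucleic acid or other danger signals. Type I interferons bind the receptor made of Ifnar1 and Ifnar2, whose kinases Jak1 and Tyk2 switch on a complex that holds Stat2 and Irf9 and binds interferon-stimulated response elements (ISREs) in promoters. Interferon gamma acts through Ifngr1, Ifngr2, Jak1 and Jak2, and its targets often carry gamma-activated sites (GAS). Many interferon-stimulated genes keep a low basal level in liver without infection, and hepatocytes, Kupffer cells and endothelial cells all express them. In whole liver, fewer cells of a type and less RNA per cell cannot be told apart.

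Members were taken in order of their roles. Irf7 is the transcription factor that amplifies type I interferon production. Isg15 is a ubiquitin-like protein that is attached to other proteins, and Usp18 removes it and also blocks signalling at Ifnar2, which makes it a negative regulator. Ifit1 binds foreign RNA, and Ifit3 is an antiviral gene of the same family. Rsad2 (viperin) makes a nucleotide that stops viral RNA synthesis, and mouse Oasl1 is an oligoadenylate synthetase-like protein that represses Irf7 translation. Irgm1 and Gbp2 are GTPases of host defence that respond strongly to interferon gamma.

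Total counts were 21836506 to 36854887 in HFD control, 31265022 to 35611837 with Aroclor 1260, 24212471 to 33131408 with PCB 126 and 23471120 to 29366462 in the combined exposure. The lowest count of any member in any library was 99 reads, for Gbp2, so no member was near the detection limit. The liver label fitted the data, with Alb (albumin) at a mean of 64725 CPM (counts scaled to library size, the unit of all levels below unless another is named). One property of the libraries stands beside every result below. The slope of a library's log2 CPM, relative to the mean of all libraries, on transcript GC content was 0.22 ± 0.118 (SD, n = 5) per 10 percentage points of GC in HFD control, 0.00099 ± 0.066 with Aroclor 1260, 0.095 ± 0.173 with PCB 126 and -0.31 ± 0.152 in the combined exposure. The combined and control slopes did not overlap, and their difference of -0.53 had an exact two-sided permutation p of 0.00794, the smallest that splits of 5 against 5 can give. The difference from control was -0.21 for Aroclor 1260 (exact permutation p = 0.0159) and -0.12 for PCB 126 (exact permutation p = 0.222). Whether the slope arose in the animals or in library preparation cannot be told apart, since the combined group's slopes all lie below those of the controls.

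In the GRCm38.p6 assembly the members lie on 8 chromosomes. Ifit1 (chr19:34640871-34650009) and Ifit3 (chr19:34583531-34588731) lie close together on the plus strand of chromosome 19. Oasl1 (chr5:114923240-114937915), Usp18 (chr6:121245906-121270917) and Gbp2 (chr3:142620602-142638008) are also on the plus strand. Isg15 (chr4:156199424-156200818), Irf7 (chr7:141262706-141266481), Rsad2 (chr12:26442746-26456452) and Irgm1 (chr11:48861968-48871683) are on the minus strand. Irf7 shares 45 exonic bases with Phrf1 on the opposite strand, and the other members overlap no annotated gene. Of all 75-base stretches of the longest Ifit3 transcript, 41.1% also occur in a transcript of its near-copy Ifit3b, so reads of these 2 genes could be lost or split in counting and the level of Ifit3 is uncertain. The same share was 5.19% for Ifit1 (with Ifit1bl2), 3.06% for Usp18, 0.983% for Gbp2 (with Gbp2b) and 0% for the other 5 members.

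Promoter sequence is shown for the members because the interferon-activated complex binds such elements. RefSeq promoter windows of 300 bases (250 before to 50 after the start) were found for 8 of the 9 members in the GRCm38.p6 table. They were searched on both strands for the ISRE core, which is GAAA, any 2 bases and GAAA again (TTTC, any 2 bases and TTTC on the other strand). A match was present in 3.44% of all 32851 windows. Counted by gene, it was present for 24 of 52 other antiviral interferon-stimulated genes with a window (46.2%). For other interferon-induced GTPases and interferon gamma targets it was 9 of 11 (81.8%), so a match is not particular to the members. Of the members' windows, 6 of the 8 held a match. The stretches with the matches follow, 5′ to 3′ on the strand of the gene, with the matched letters in capitals.
Isg15, chr4:156200855-156200916, minus strand: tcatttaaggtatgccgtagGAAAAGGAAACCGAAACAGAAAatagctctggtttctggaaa
Ifit1, chr19:34640765-34640833, plus strand: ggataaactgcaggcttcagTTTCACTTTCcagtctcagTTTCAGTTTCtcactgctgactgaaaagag
Ifit3, chr19:34583353-34583436, plus strand: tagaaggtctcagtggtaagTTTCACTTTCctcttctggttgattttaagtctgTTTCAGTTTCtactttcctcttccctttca
Rsad2, chr12:26456543-26456592, minus strand: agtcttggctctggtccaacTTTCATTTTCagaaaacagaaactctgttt
Irgm1, chr11:48871415-48871470, minus strand: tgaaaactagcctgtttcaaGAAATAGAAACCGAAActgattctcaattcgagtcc
Gbp2, chr3:142620584-142620633, plus strand: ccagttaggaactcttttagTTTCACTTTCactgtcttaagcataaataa

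Isg15 held 3 overlapping matches, the first starting 78 bases before the start. Ifit1, Ifit3 and Irgm1 held 2 each, and Rsad2 and Gbp2 held 1 each. The windows of Irf7 and Oasl1 held none, which says only that these letters are not in these windows. The GAS letters TTCNNNGAA were in 0 of the 8 windows and in 8.3% of all windows. A match is a description of the letters and not evidence of binding in these livers.

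Compared per transcript length, as FPKM (CPM divided by the exonic length in kilobases), the members were of similar low to moderate level in HFD control. Isg15 was highest at 26.1 ± 8.23 FPKM (SD, n = 5), followed by Irgm1 at 16.5 ± 2.82 and Ifit3 at 16.4 ± 4.24. Usp18 (12.2 ± 2.98), Irf7 (12.0 ± 1.86) and Ifit1 (11.9 ± 4.65) formed the middle, and Oasl1 (7.88 ± 1.82), Rsad2 (6.19 ± 1.95) and Gbp2 (3.29 ± 0.889) were lowest. Of the neighbours in this order, only Isg15 and Irgm1 had ranges that did not overlap. In the combined exposure Isg15, at 10.9 ± 3.60 FPKM, stood below Ifit3 (15.3 ± 0.870) and Irgm1 (15.2 ± 0.716), and Oasl1 was lowest at 4.06 ± 1.53.

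**Figure D1:**
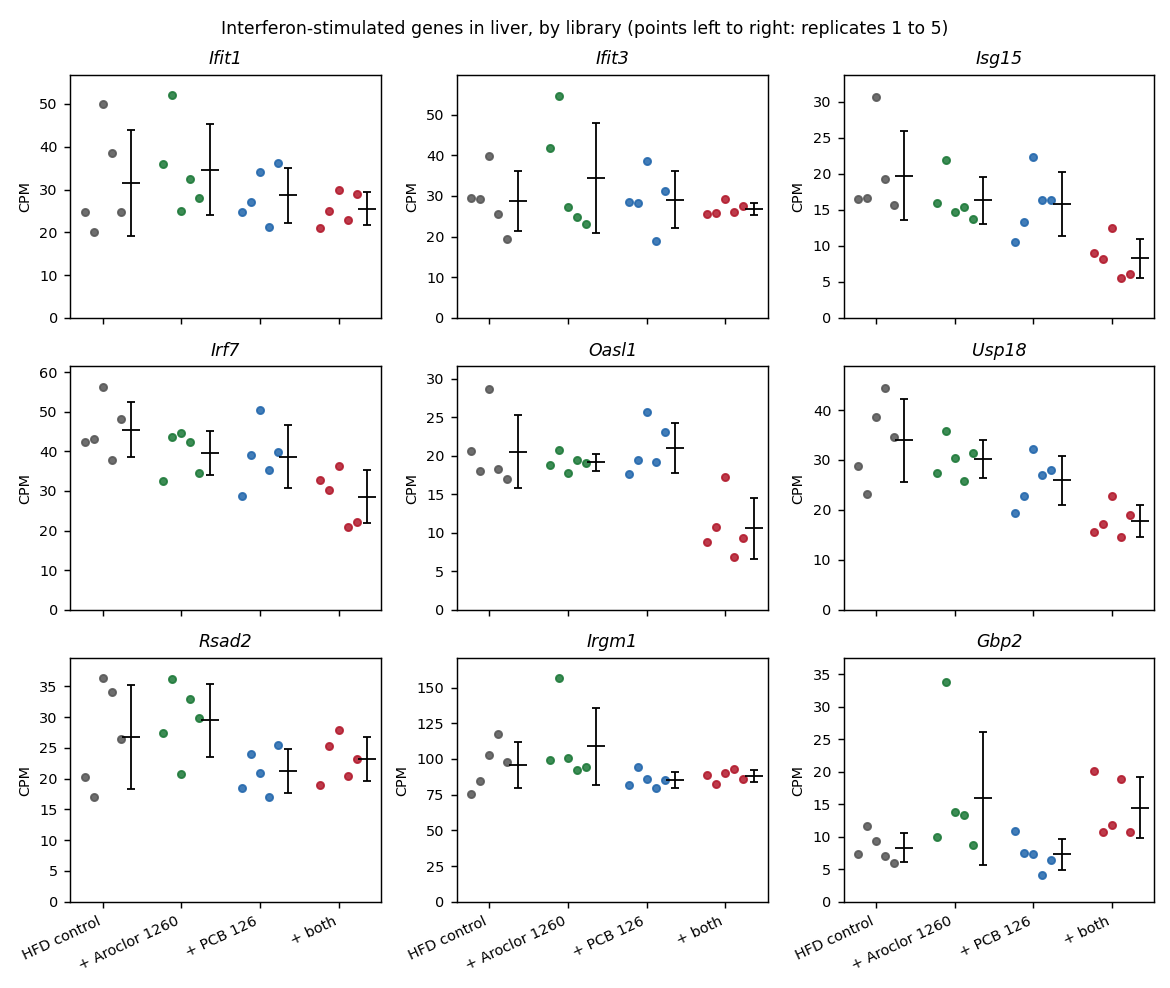
Each panel plots the CPM of 1 member on the vertical axis in the 4 groups, with 1 point per mouse in the order of replicates 1 to 5 and the mean ± SD as a bar beside the points. The 5 combined-exposure points of Isg15, between 5.60 and 12.5 CPM, sit below all 5 control points, while the combined-exposure points of Ifit3 and Irgm1 lie within the control range.

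Each exposure was compared with the vehicle-treated HFD liver, and the combined exposure is given first. In the combined exposure 4 of the 9 members fell, namely Isg15, Irf7, Oasl1 and Usp18, and none rose past an adjusted p of 0.05. In this comparison 32.8% of all tested genes passed the same threshold, 17% lower and 15.8% higher. The median log2FC of the 9 members was -0.30, against -0.00096 over all tested genes, and 8 of the 9 values were negative.

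Isg15 was 16.5, 16.7, 30.6, 19.3 and 15.6 CPM in control replicates 1 to 5 and 8.93, 8.18, 12.5, 5.60 and 6.16 CPM in combined replicates 1 to 5. All 5 combined mice were below the lowest control mouse, so the groups did not overlap. The combined level was 41.9% of control (log2FC -1.25 ± 0.233 SE, edgeR adjusted p = 0.0011).

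Usp18, the protease that reverses Isg15 attachment, was 28.8, 23.1, 38.7, 44.5 and 34.5 CPM in control and 15.5, 17.2, 22.8, 14.6 and 19.0 CPM in the combined exposure. The highest combined mouse lay just under the lowest control mouse. The combined level was 52.6% of control (log2FC -0.93 ± 0.167 SE, edgeR adjusted p = 0.00104).

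Oasl1 was 20.6, 18.1, 28.7, 18.3 and 17.0 CPM in control and 8.80, 10.8, 17.2, 6.84 and 9.27 CPM in the combined exposure. Combined replicate 3 reached the control range and the other 4 combined mice were below it. The combined level was 51.6% of control (log2FC -0.96 ± 0.190 SE, edgeR adjusted p = 0.00154).

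Irf7 was 42.3, 43.0, 56.2, 37.7 and 48.2 CPM in control and 32.8, 30.2, 36.4, 21.0 and 22.3 CPM in the combined exposure. The groups did not overlap. The combined level was 62.7% of control (log2FC -0.67 ± 0.163 SE, edgeR adjusted p = 0.00439). Isg15, Usp18 and Irf7 were thus lower in every combined mouse than in any control mouse, a state that held for 8.14% of all tested genes. Each of the 4 calls was kept when any 1 control or combined mouse was left out.

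The antiviral genes Ifit1, Ifit3 and Rsad2 did not pass the test. Ifit1 was 24.7, 20.1, 49.9, 38.5 and 24.7 CPM in control and 21.1, 24.9, 29.8, 22.8 and 29.0 CPM in the combined exposure (log2FC -0.30 ± 0.229 SE, edgeR adjusted p = 0.335). Its combined mice all lay within the control range. Ifit3 (log2FC -0.10 ± 0.220 SE) and Rsad2 (-0.21 ± 0.190) had adjusted p of 0.772 and 0.436, with combined levels of 25.4 to 29.1 CPM for Ifit3 and 19.0 to 27.8 CPM for Rsad2. Both ranges lay inside those of the control mice, which were 19.4 to 39.8 and 16.9 to 36.3 CPM.

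The GTPases also stayed short of the threshold. Irgm1 was 82.2 to 93.1 CPM in the combined exposure and 75.4 to 117.6 CPM in control (log2FC -0.12 ± 0.132 SE, edgeR adjusted p = 0.528). Gbp2 was the one member with a positive value. It was 7.39, 11.6, 9.38, 7.02 and 5.98 CPM in control and 20.1, 10.7, 11.8, 18.9 and 10.7 CPM in the combined exposure. Combined replicates 1 and 4 stood well above the others, replicate 3 lay just above the highest control mouse, and replicates 2 and 5 lay within the control range. The log2FC was 0.80 ± 0.323 (SE) with an edgeR adjusted p of 0.0631, and it passed with DESeq2 (adjusted p = 0.0394), with the 1 FPKM filter (0.0453) and with only the groups compared (0.0284) but not after GC correction (0.266). It also passed without control replicate 2 (log2FC 0.93, adjusted p = 0.0492).

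**Figure D2:**
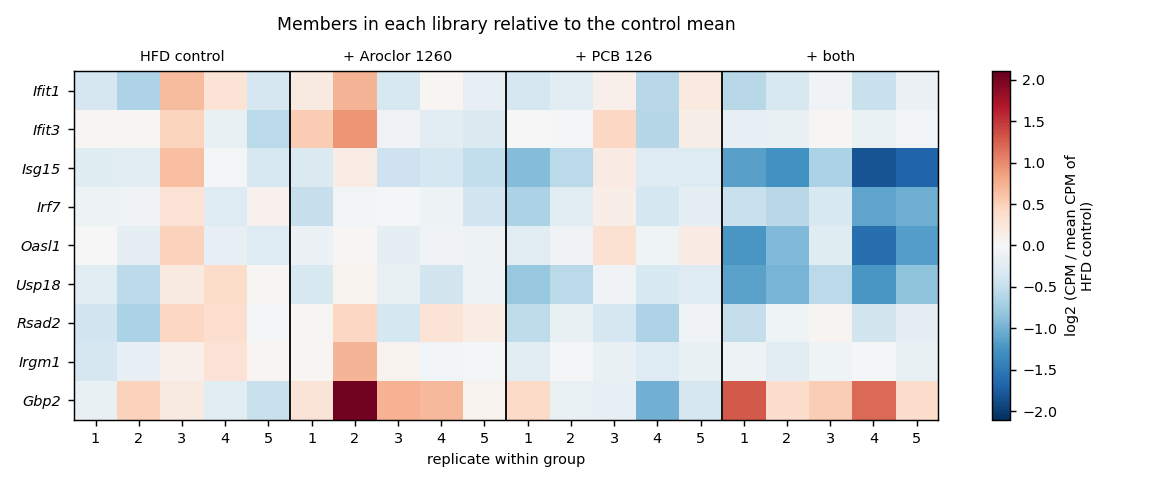
Rows are the 9 members, columns the 20 libraries by group and replicate, and colour is log2 of the CPM over the mean CPM of HFD control. The blue block of Isg15, Irf7, Oasl1 and Usp18 in the combined exposure is palest in replicate 3, and the red column in the Aroclor 1260 group is replicate 2, where Gbp2 was 33.8 CPM.

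The 4 members that fell are also the 4 with the highest GC content. The longest transcript was 52.8% GC for Isg15, 55.4% for Irf7, 56.3% for Oasl1 and 50.9% for Usp18, and 43.3% to 47.5% for the other 5. Across all tested genes the share called lower in the combined exposure rose with GC, from 0.626% of genes under 45% GC to 5.23% at 45 to 50%, 20.5% at 50 to 55% and 45.1% at 55% or more. With a smooth GC trend of each library removed, these shares were 3.63%, 4.25%, 4.26% and 3.2%. The median log2FC in the same GC ranges was 0.42, 0.14, -0.18 and -0.56 without this correction. With it the medians were 0.026, 0.0035, -0.031 and -0.12, so a small fall with GC remained, largest in the range of Irf7 and Oasl1.

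After this GC correction 3 of the 9 members were still called lower, beside 3.86% of all tested genes. Isg15 was at log2FC -1.11 (edgeR adjusted p = 0.0119), Usp18 at -0.87 (0.00765) and Oasl1 at -0.60 (0.0467). Irf7 moved to -0.36 (adjusted p = 0.142). The members of lower GC content moved the other way, with Ifit1 at -0.63 (0.104), Rsad2 at -0.48 (0.118) and Irgm1 at -0.35 (0.107), and the median over the 9 members was -0.48 against -0.023 over all tested genes.

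When the slopes themselves were added to the model as a covariate, 0 of the 9 members passed, beside 2.15% of all tested genes (edgeR, with 1 member, Usp18, and 10.7% of all genes at an unadjusted p under 0.05). Isg15 was then at -0.48 ± 0.355 (SE, adjusted p = 0.705), Usp18 at -0.67 ± 0.289 (0.382), Oasl1 at -0.32 ± 0.291 (0.770) and Irf7 at 0.016 ± 0.229 (0.991). The slope and the combined group cannot be told apart by this design, and the standard errors grew in that fit. The part of the GC trend in the fall of the members was not tested beyond these fits.

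Combined replicate 3, whose slope of -0.11 was nearest to 0 in its group, had the highest level in its group of 7 of the 9 members. The libraries with the nearest slopes were Aroclor 1260 replicate 1 (-0.085) and PCB 126 replicate 1 (-0.090). Isg15 was 12.5 CPM in the combined library, 16.0 in the Aroclor 1260 library and 10.5 in the PCB 126 library. Oasl1 was 17.2, 18.8 and 17.6 CPM in the same order, Usp18 was 22.8, 27.3 and 19.5 CPM, and Irf7 was 36.4, 32.6 and 28.7 CPM. In these 3 libraries, which were picked after their values were seen, the combined mouse was the lowest for Oasl1 and not for Isg15, Usp18 or Irf7. For each of these genes the combined library was the highest of its group and the PCB 126 library the lowest of its group. With 1 mouse per group at such extremes, these values cannot show how the groups differ at equal slope. No control library had a slope in this range, the lowest being 0.080.

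**Figure D3:**
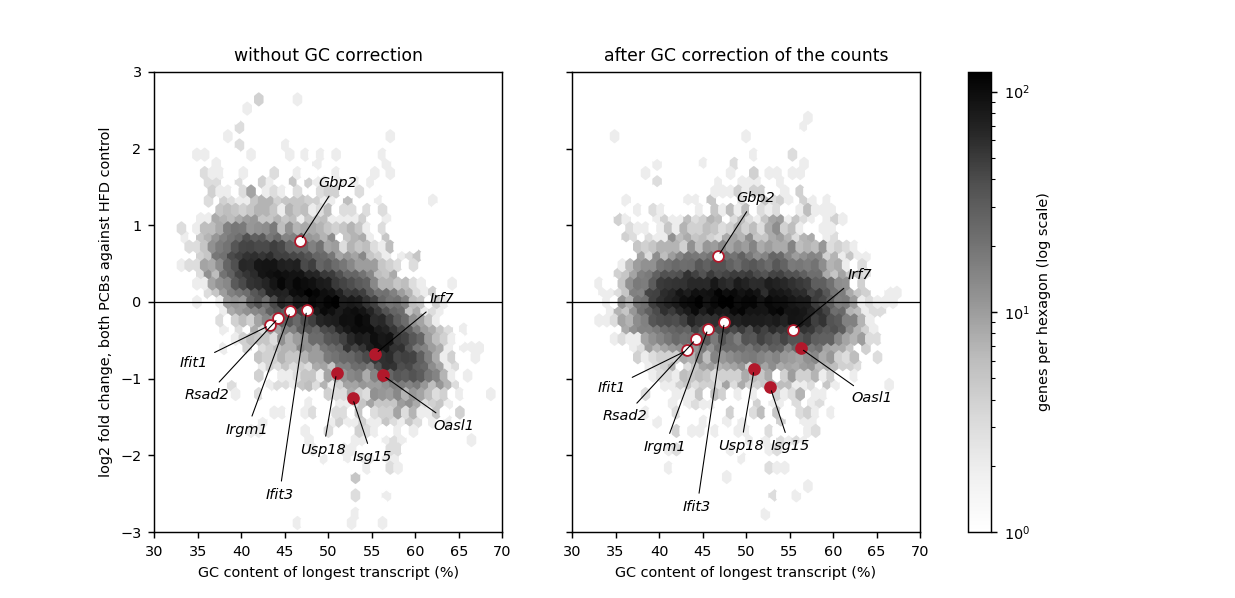
Each panel plots log2FC in the combined exposure against HFD control over the GC content of the longest transcript, with grey hexagons for all tested genes within the axes and red points for the 9 members, filled where the adjusted p was under 0.05. Without correction all genes slope downward and Isg15, Irf7, Oasl1 and Usp18 sit on the GC-rich side. With correction the downward slope is much smaller but not absent, and Isg15, Usp18 and Oasl1 are still filled.

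The combined exposure was next set against each PCB alone. These comparisons share the combined mice with the one above and are given as their own values. Against PCB 126 alone, 3 members were lower and 1 was higher, beside 16.7% of all tested genes called (11% lower and 5.64% higher). Isg15 was at log2FC -0.93 ± 0.232 SE (edgeR adjusted p = 0.0171), Oasl1 at -0.99 ± 0.190 (0.0136) and Usp18 at -0.54 ± 0.167 (0.0345). Gbp2 was higher, at 0.99 ± 0.325 (0.0432). Without PCB 126 replicate 3 none of the 9 was called. This mouse had the highest Isg15, Irf7, Oasl1, Usp18 and Ifit3 of its group and also its highest GC slope (0.32). The number is that of the sample title, and an inner library tag of replicate 2 also reads 3. Leaving out PCB 126 replicate 4 or 5 or combined replicate 1, 4 or 5 left 1 or 2 calls. The shares over all tested genes in these fits are not given here, so whether other genes lost their calls too cannot be read from these counts. After GC correction 0 of the 9 and 0% of all genes passed (edgeR, 4 of the 9 and 20.4% of all genes at an unadjusted p under 0.05).

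Against Aroclor 1260 alone, 2 members were lower, beside 0.412% of all tested genes called (0.309% lower). Oasl1 was at log2FC -0.86 ± 0.190 SE and Usp18 at -0.76 ± 0.167, both at an edgeR adjusted p of 0.0493. Isg15 was at -0.98 ± 0.232 (0.0562). Both calls lay at the threshold: leaving out any 1 Aroclor 1260 mouse, or combined replicate 2, 4 or 5, left no member called, and leaving out combined replicate 3 left 4. The shares over all tested genes in these fits are not given here either. The GC-corrected fit called 0 of the 9, beside 0.0193% of all genes (edgeR, 6 of the 9 and 10.7% of all genes at an unadjusted p under 0.05), with all 9 values negative and a median of -0.52.

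Whether the combined exposure departed from the sum of the 2 single exposures was tested as an interaction. No member passed (edgeR, 1 of the 9 and 11.9% of all genes at an unadjusted p under 0.05, and no member by DESeq2), and 0% of all tested genes did. The member with the smallest p was Oasl1, at -0.89 ± 0.266 SE on the log2 scale, with an unadjusted p of 0.00315 and an adjusted p of 0.284. Isg15 was at -0.66 ± 0.323 (adjusted p = 0.427). The lower levels of these genes in the combined exposure were therefore not shown to exceed the sum of the single exposures.

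**Figure D4:**
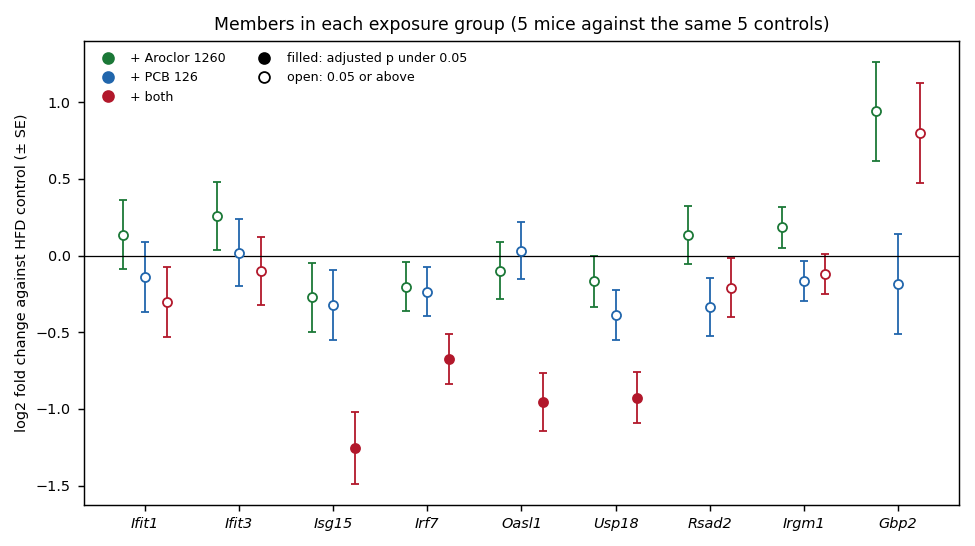
The vertical axis is log2FC against HFD control with its SE, for each of the 9 members after Aroclor 1260, PCB 126 or both, and filled points have an edgeR adjusted p under 0.05. Only the combined-exposure points of Isg15, Irf7, Oasl1 and Usp18 are filled, and the 3 comparisons share the same 5 control mice.

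With Aroclor 1260 alone, 0 of the 9 members passed (edgeR, 1 at an unadjusted p under 0.05, and 0 by DESeq2), and 0% of all tested genes did. Log2FC ranged from -0.27 (Isg15) to 0.26 (Ifit3) for 8 members. Gbp2 was apart at 0.94 ± 0.322 SE, with an unadjusted p of 0.00834 and an adjusted p of 0.203. It was 10.01, 33.8, 13.7, 13.3 and 8.73 CPM in replicates 1 to 5, against 5.98 to 11.6 CPM in control. Replicates 2, 3 and 4 exceeded all control mice and the other 2 lay within their range. Without replicate 2 the log2FC of Gbp2 was 0.47 (adjusted p = 0.362).

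Replicate 2 of Aroclor 1260 had the highest level in its group of 8 of the 9 members. Irgm1 was 156.8 CPM in it and 92.5 to 100.9 CPM in the other 4 mice, and Isg15 was 21.97 CPM against 13.7 to 16.0. Its summed level of 8 T and NK cell markers (Cd3e, Cd8a, Ncr1, Nkg7 and others) was 8.87 CPM, beside 3.84 to 5.25 in control, 3.47 to 5.29 in the other Aroclor 1260 mice, 3.61 to 5.69 with PCB 126 and 4.51 to 7.57 in the combined exposure. Its summed level of 8 Kupffer cell and macrophage markers was 555 CPM, also the highest of the 20 libraries. The same held for the endothelial (244 CPM), stellate (426 CPM), red blood cell (208 CPM) and plasmacytoid dendritic cell (1.37 CPM) marker sums. The hepatocyte, B cell, neutrophil and cholangiocyte sums were not highest in it. The high level was thus not particular to T and NK cell or macrophage markers. None of the T and NK cell or Kupffer cell markers was at 0 in all libraries, and none passed the test with Aroclor 1260. The part of these cells in the levels of Gbp2 and Irgm1 was not tested.

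With PCB 126 alone, 0 of the 9 members passed (edgeR, 1 at an unadjusted p under 0.05, and 0 by DESeq2), beside 0.116% of all tested genes. Values ran from -0.39 to 0.033 and 7 of the 9 were negative. Usp18 was 19.5, 22.8, 32.2, 27.1 and 28.1 CPM (log2FC -0.39 ± 0.165 SE, adjusted p = 0.289), with replicates 1 and 2 below every control mouse. Rsad2 was at -0.34 ± 0.190 (0.416), Isg15 at -0.32 ± 0.227 (0.526) and Oasl1 at 0.033 ± 0.187 (0.957). Isg15 was 10.5, 13.3, 22.3, 16.4 and 16.3 CPM, with replicates 1 and 2 below every control mouse. Rsad2 (17.1 to 25.5 CPM) and Irgm1 (79.5 to 94.1 CPM) lay within the control range in all 5 mice.

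Within a group, single mice stood high or low for several members together. Control replicate 3 had the highest level in its group of 6 of the 9 members, and it carried Isg15 at 30.6 CPM against 15.6 to 19.3 CPM in the other 4. In the PCB 126 group replicate 3 was highest for 5 members and replicate 4 was lowest for 5. Replicate 4 of the combined exposure, with the steepest slope of -0.50, was lowest for 4 members in its group, and Isg15, Irf7, Oasl1 and Usp18 were all among them. The mean log2 level of the 9 members relative to the control mean ran from -0.23 to 0.38 over the control mice, from -0.16 to 0.56 with Aroclor 1260, from -0.46 to 0.046 with PCB 126 and from -0.62 to -0.15 in the combined exposure.

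The upstream steps of the pathway were measured in the same libraries. Of 21 interferon genes in the table, 16 had no read in any library, 5 had any (Ifna4, Ifnb1, Ifng, Ifnk and Ifnz), and the highest level was 0.233 CPM, for Ifng. For a gene at 0, the limit that a count of 0 allows is 3 reads, or 0.0814 to 0.137 CPM by library (counting error only). Only 2 of them, Ifnk and Ifng, had enough counts to be tested, and neither passed in any comparison with control (edgeR adjusted p of 0.476 or more). The receptors were expressed in control at 17.0 ± 0.882 FPKM for Ifnar2, 7.42 ± 0.682 for Ifngr2, 5.86 ± 0.744 for Ifngr1, 5.78 ± 0.261 for Ifnar1 and 2.91 ± 0.877 for Il10rb, while Ifnlr1 was at 0.033 ± 0.0261. None of the 6 receptor genes passed the test in any comparison with control. In the combined exposure Ifnar1 was at log2FC -0.18 ± 0.0886 SE (edgeR adjusted p = 0.136) and Ifnar2 at -0.13 ± 0.0913 (0.315).

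Of 11 kinases and transcription factors of the pathway, 5 fell and 1 rose in the combined exposure, beside 17% of all tested genes lower and 15.8% higher. Irf5 (log2FC -0.69 ± 0.188 SE), Irf3 (-0.67 ± 0.125), Tyk2 (-0.61 ± 0.133), Stat2 (-0.57 ± 0.179) and Irf9 (-0.42 ± 0.111) were lower, with edgeR adjusted p of 0.00113 to 0.0196. Jak2, which serves the interferon gamma receptor, was higher at 0.57 ± 0.148 (0.00629). After GC correction only Irf9 was called, at -0.40 (adjusted p = 0.0261), beside 3.86% of all tested genes lower, and Irf3 moved to -0.27 (0.0877), Tyk2 to -0.18 (0.285), Stat2 to -0.45 (0.0981), Irf5 to -0.35 (0.236) and Jak2 to 0.28 (0.174). The call of Stat2 was also lost without control replicate 1 (-0.46, 0.0666) or combined replicate 5 (-0.53, 0.0519). Per length, Irf3 (14.1 ± 1.42 FPKM) and Jak1 (12.5 ± 1.70) stood above Stat2 (9.90 ± 2.08), Irf9 (9.45 ± 1.54), Irf1 (8.08 ± 3.18) and Irf2 (7.09 ± 1.72) in mean control level. Irf5 (3.67 ± 0.749), Tyk2 (2.90 ± 0.392), Jak2 (2.84 ± 0.467) and Irf8 (0.942 ± 0.240) were lowest.

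Of 15 nucleic acid sensors and adaptors, 4 fell and 3 rose in the combined exposure, or 46.7% called beside 32.8% of all tested genes. Dhx58 (LGP2), which tunes the RNA sensors, fell by 0.87 on the log2 scale (SE 0.136, edgeR adjusted p = 0.000582) and was still called after GC correction (-0.65, 0.00817). The adaptors Ticam1 (-0.74) and Myd88 (-0.49) fell, while Tlr7 (0.84) and Tlr3 (0.73), receptors for single- and double-stranded RNA, rose. None of these 4 was called after GC correction, where their adjusted p ran from 0.109 to 0.378.

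Of 9 tested negative regulators 3 fell (5 without control replicate 4) and 0 rose. This is 33.3% of the list called, all lower, beside 17% of all tested genes lower and 15.8% higher. Adar, which edits double-stranded RNA so that sensors do not react to it, was at log2FC -0.62 ± 0.103 SE (edgeR adjusted p = 0.000713) and remained called after GC correction (-0.41, 0.0118). Pias4 (-0.81) and Ptpn6 (-0.49), which restrain Stat and Jak signalling, were not called with that correction.

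A list of other antiviral interferon-stimulated genes held 63 tested genes, of which 15 fell and 2 rose. These are 27% of the list, beside 32.8% of all tested genes called, 17% lower and 15.8% higher. The 5 with the largest change were Oas1a (log2FC -0.83), Oas1g (-0.72), Ifitm2 (-0.72), Ifi27l2a (-0.71) and Samd9l (0.70), with edgeR adjusted p of 0.00116 to 0.0421. The Oas enzymes make the activator of RNase L, and Ifitm2 hinders viral entry. Oas1g was not called without control replicate 1 or 2 or combined replicate 2, 4 or 5 (adjusted p 0.0609 to 0.116), Ifi27l2a without control replicate 3 or combined replicate 2, 4 or 5 (0.0501 to 0.0622), and Oas1a without combined replicate 5 (0.0528). The list median was -0.015, against -0.00096 over all genes. After GC correction 4 were called, all lower, which is 6.35% of the list beside 3.86% of all tested genes called lower. All were different from these 5: Cmpk2 (-0.66), Xaf1 (-0.57), Ifi27 (-0.52) and Trim34a (-0.45), named after their values were seen. The list median was then -0.14.

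Of 21 other interferon-induced GTPases and interferon gamma targets, only Gbp7 passed in the combined exposure (2 genes without control replicate 2). This is 4.76% beside 32.8% of all tested genes (17% lower and 15.8% higher). Gbp7 was higher, at log2FC 0.90 ± 0.240 SE (edgeR adjusted p = 0.0076), and at 0.50 (0.174) after GC correction. The list median was 0.27, and -0.10 after GC correction, so the direction of the list as a whole turned with it.

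**Figure D5:**
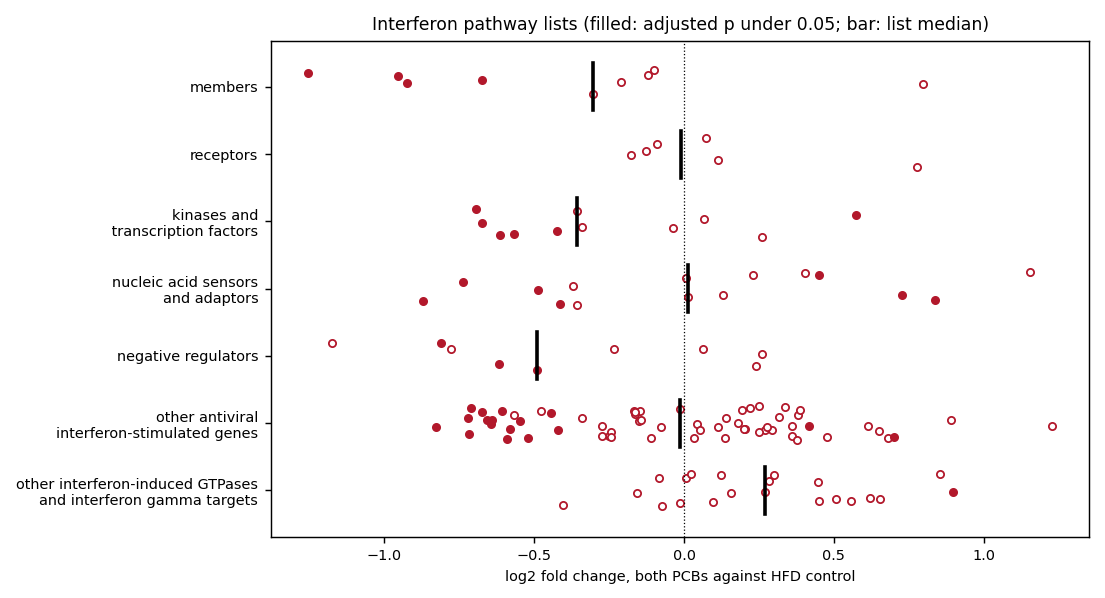
The horizontal axis is log2FC in the combined exposure against HFD control, with 1 point per tested gene in each list, filled where the adjusted p was under 0.05, and a bar at the list median. The 9 members have a median of -0.30, the other antiviral genes spread on both sides of 0 around -0.015, and the GTPase list lies mostly above 0 with only Gbp7 filled; the interferon genes themselves are not drawn.

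With either PCB alone, no gene of these pathway lists passed the adjusted threshold. The numbers at an unadjusted p under 0.05 were 12 of 63 other antiviral genes and 8 of 21 GTPases and gamma targets with Aroclor 1260, and 7 of 63 and 3 of 21 with PCB 126, beside 17.2% and 14.7% of all tested genes. DESeq2 called 1 sensor and 1 antiviral gene with Aroclor 1260, and 1 antiviral gene and 1 gene of the GTPase list with PCB 126. The share that DESeq2 called over all tested genes is not given here. Whether these calls are particular to the lists cannot be read from the counts. With Aroclor 1260 the GTPase and gamma target list had 20 positive values of 21 and a median of 0.51. The median became 0.21 without replicate 2, the mouse with the highest sums of T and NK cell markers and of several other marker lists. The 2 genes of smallest p in the list were Gbp7 (log2FC 0.88 ± 0.239 SE, edgeR adjusted p = 0.184) and the chemokine Cxcl9 (0.95 ± 0.348, 0.216). By the same rule, the other antiviral genes named with Aroclor 1260 were Samd9l (0.56 ± 0.132, 0.184) and Parp12 (0.31 ± 0.088, 0.186). The negative regulators were Samhd1 (0.27 ± 0.119, 0.260) and Adar (-0.23 ± 0.102, 0.266).

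With PCB 126 the same list had a median of -0.30, and 16 of its 21 values were negative. Its gene of smallest p was Cxcl10, the chemokine that draws activated T cells, at log2FC -1.02 ± 0.245 SE (edgeR adjusted p = 0.0739), followed by Gbp5 (-0.61 ± 0.267, 0.296). Among the other antiviral genes, Trim14 was at 0.72 ± 0.172 (0.0739, and 0.0385 without PCB 126 replicate 3) and Cmpk2 at -0.51 ± 0.158 (0.160). Among the sensors Tlr3 had the smallest p with both PCB preparations, at 0.59 ± 0.158 (0.184) with Aroclor 1260 and 0.49 ± 0.159 (0.179) with PCB 126. Next were Tlr7 (0.83 ± 0.251, 0.195) with Aroclor 1260 and Ifih1 (0.32 ± 0.137, 0.295) with PCB 126. The negative regulators named with PCB 126 were Adar (-0.22 ± 0.102, 0.332) and Socs3 (-0.60 ± 0.446, 0.557).

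Among the 8 genes whose log2 level over the 20 libraries was most like the mean of the members were Chmp4b (Pearson r = 0.80), Cmpk2 (0.80), Xaf1 (0.79), Shisa5 (0.77), Tap1 (0.77), Ifit3b (0.76) and Trappc4 (0.74), out of 11333 candidates. The libraries share their depth and GC trend in these values, so the coefficients are a description. Of the 8, 4 were on the list of other antiviral genes (Cmpk2, Xaf1, Shisa5 and Ifit3b).

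Markers of other liver cells were measured beside these results. The share called in the combined exposure against control was 32.8% over all tested genes, 17% lower and 15.8% higher. The share called was 12.5% of the Kupffer cell and macrophage markers, 16.7% of the endothelial and 42.9% of the hepatocyte markers. The summed level of 8 Kupffer cell and macrophage markers was 210 to 489 CPM in control and 278 to 380 CPM in the combined exposure, and 1 of the 8, Adgre1, was called there, higher. The 4 plasmacytoid dendritic cell markers, from cells that make much type I interferon, summed to 0.602 to 1.05 CPM in control and 0.572 to 0.910 CPM in the combined exposure, with none called. For the 6 endothelial cell markers the sums were 106 to 228 and 153 to 193 CPM, with 1 of them, Stab2, called lower. For the 7 hepatocyte markers they were 98349 to 105710 and 93871 to 122789 CPM, and 3 were called lower, namely Apoa1 (log2FC -0.78), Ttr (-0.70) and Serpina1a (-0.47).

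Of 7 stellate cell markers, 3 were called higher (Lrat, Dcn and Reln) and 2 lower (Des and Ecm1) in the combined exposure. These were 71.4% of the list, beside 32.8% of all tested genes. The stellate sums were 204 to 382 CPM in control and 343 to 413 CPM in the combined exposure. The 8 T and NK cell markers had a median log2FC of 0.60 and the 4 red blood cell markers one of -0.83, with 0 called in either list (edgeR, 2 of each at an unadjusted p under 0.05). The 4 B cell, 3 tested neutrophil and 4 cholangiocyte markers had medians of -0.15, -0.0084 and -0.48, also with 0 called (edgeR, 1 cholangiocyte marker at an unadjusted p under 0.05). After GC correction Ttr was the one marker called, lower, of the 10 lists, beside 3.86% of all tested genes called lower. No marker of these lists was at 0 in all libraries, and their part in the members' levels was not tested.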

How the data were processed

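RNA-seq was made from 20 frozen livers, 5 mice per group, with a stranded poly(A) kit over 2 sequencing runs, and which library was in which run was not given in the sources used here. Per the labels, FastQC 0.10.1, STAR 2.6 and HTSeq 0.10.0 were used with mm10 (GRCm38.p6). The strand setting of the counting was not given in the sources used here. The authors deposited raw read counts per Ensembl gene, not normalized, and these were used as deposited. The labels give 12 weeks of exposure and the study's methods 10 weeks from gavage to harvest. Replicate mice of a group were separate animals. The 40 within-group pairs of libraries all differed by more than sampling noise (chi-square per degree of freedom at least 19.7), so none was counted as a repeat.

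Symbols and coordinates came from GENCODE M21. Genes whose counts summed to 10 or more were fitted with edgeR 4.0.16 (R 4.3.3; TMM, quasi-likelihood F test, 1 coefficient per group, 16 residual degrees of freedom), two-sided, with Benjamini-Hochberg adjustment over all 15522 genes and a threshold of 0.05. CPM are TMM-scaled and FPKM divide CPM by exonic length. SE is the log2FC divided by the square root of F. GC correction used, as an offset, a smoothing spline with 6 degrees of freedom of each library's deviation from the gene mean over the GC content of the longest transcript, known for 15516 of the genes. Library slopes were compared by exact permutation over samples. DESeq2 1.42.0, other scalings, filters, sample sets and thresholds, a replicate block, the GC fits and leaving out each mouse were alternatives, whose effect is given in the closing section. The fitting code was tested on simulated data. Intervals between mice were given as SD.

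The members and the pathway and marker lists were chosen with earlier results of these data known. Named were the 9 members in each comparison with control, the receptors, kinases and transcription factors with their control levels, and, from each other list, up to 5 called genes of the largest change (mean level 1 CPM or more), or the 2 with the smallest p. The 8 genes most like the members were named by Pearson correlation over libraries, except that 1 gene is not reported here. Mice that carry one replicate number in several groups were separate animals, so the numbers were not used to pair the samples in the main fit. The correlations of their deviations ran from -0.26 to 0.74 and 13 of 30 exceeded 0.1. Whether samples of the same number were handled together cannot be told from these values. Promoter windows came from the RefSeq table of GRCm38.p6.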

Additional observations from a re-analysis of the deposited data

Results flagged for a closer look

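A level that stands apart from the other 4 mice of its group was looked for in the 9 members and the GC slope, by the gap to the nearest mouse as a share of the group's range, over 40 groups of 5. Chance alone marks about 1 group in 20, and 4 were marked. Isg15 was 30.6 CPM in HFD control replicate 3 and 15.6 to 19.3 CPM in the other control mice. The other 3 were in Aroclor 1260 replicate 2. Isg15 was 21.97 CPM there and 13.7 to 16.0 CPM in the other Aroclor 1260 mice, Irgm1 was 156.8 CPM against 92.5 to 100.9, and Gbp2 was 33.8 CPM against 8.73 to 13.7. Without control replicate 3 the log2FC of Isg15 in the combined exposure was the smallest of those with 1 mouse left out, at -1.04 (edgeR adjusted p = 0.00266).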

How the results depend on the processing

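The 4 members that fell in the combined exposure kept their direction and call under other scalings (RLE, upper quartile), DESeq2, other filters (none, filterByExpr, 1 FPKM), only the groups compared and a threshold of 0.01. With GC correction Irf7 lost its call, and with the GC slope as a covariate the count was 0. Against PCB 126 alone the count of 4 became 0 with GC correction, 0 with the slope covariate and 0 at 0.01. Against Aroclor 1260 alone the count of 2 became 0 with GC correction, the slope covariate, the threshold of 0.01, no filter or only the groups compared. In the combined exposure, GC correction left 1 of 6 kinases and transcription factors, 1 of 7 sensors, 1 of 3 negative regulators, 4 of 17 other antiviral genes and 0 of 1 GTPases, the slope covariate left 0 of each, and 9 antiviral genes passed at 0.01. Over all tested genes 3.86% were called lower with GC correction and 2.15% were called with the slope covariate. Upper-quartile scaling called 1 receptor. DESeq2 called 1 sensor and 1 antiviral gene with Aroclor 1260, and 1 antiviral gene and 1 GTPase or gamma target with PCB 126, where the slope covariate called 2 antiviral genes. The shares over all tested genes are not given here for DESeq2 or the other filters, scalings, thresholds and sample sets. The same holds for the slope covariate in comparisons other than combined exposure against control.

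Several values near 0 changed sign. With PCB 126 these were Ifit3 (-0.00354 with the 1 FPKM filter, -0.023 with the upper quartile) and Oasl1 (-0.0077 with the upper quartile). With Aroclor 1260, Oasl1 was at 0.041 with GC correction, and Oasl1 (0.17), Irf7 (0.079) and Isg15 (0.053) turned with the slope covariate. In the combined exposure the slope covariate turned Irf7 (0.016), Pias4 (0.024), Ptpn6 (0.024), Oas1g (0.064), Ifi27l2a (0.13), Jak2 (-0.16), Tyk2 (0.064), Stat2 (0.20) and Irf3 (0.062). The causes were not tested.

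When single mice were left out, the members called in the combined exposure numbered 4 to 5 against control. They numbered 0 to 5 against PCB 126 alone and 0 to 4 against Aroclor 1260 alone, without the shares over all tested genes in these fits. In the combined exposure the negative regulators ranged from 3 to 5 and the GTPases from 1 to 2, and with PCB 126 the antiviral genes from 0 to 1. Signs turned in the ranges of Ifit1 (-0.056 to 0.36) and Oasl1 (-0.16 to 0.051) with Aroclor 1260, Ifit1 (-0.26 to 0.088), Ifit3 (-0.10 to 0.16) and Oasl1 (-0.050 to 0.18) with PCB 126, and Ifit3 (-0.21 to 0.046) in the combined exposure.

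The replicate numbers name different mice and were not used as pairs in the main fit. In 8 of 30 same-numbered pairs, the first library correlated best with its own number among the 5 libraries of the other group. This was checked in 1 direction only, and with 5 libraries to match, some best matches fall on the own number by chance. With the replicate number as a block, 5 members were called in the combined exposure against control, with Gbp2 joining (log2FC 0.85, edgeR adjusted p = 0.0307), 5 against PCB 126 alone and 3 against Aroclor 1260 alone, and 2 GTPases or gamma targets. GC correction with the block gave 3, 3 and 1 members, 1 kinase or transcription factor, 1 sensor, 1 negative regulator, 5 antiviral genes, 0 GTPases, and Oasl1 at 0.083 with Aroclor 1260. The shares over all tested genes in the fits with the block are not given here. Whether the added calls are particular to the members cannot be read from these counts.

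The slope differences under RLE and upper-quartile scaling, added after seeing the data, moved by less than the spread between mice. Depth limits the interferon genes, which were nearly all at 0. The count tests treat each mouse as 1 sample and measure the spread between 5 mice per group.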
